A study of Bos taurus with 111 samples.

Results

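THRSP (ENSBTAG00000011666), FASN (ENSBTAG00000015980) and ELOVL6 (ENSBTAG00000010564) are 3 genes of fatty acid synthesis, taken by identifier from the 24616 genes counted in muscle biopsies of steers. The biopsies were of M. longissimus thoracis et lumborum, the loin muscle, from Charolais (CH, a beef breed) and Holstein-Friesian (HF, a dairy breed) steers. Each steer was classed within its breed and feeding phase by residual feed intake (RFI), the difference between the feed it ate and the feed predicted from its weight and growth. L-RFI steers are therefore the efficient class and H-RFI steers the inefficient class. The 3 phases were a high concentrate diet while growing (H1), zero-grazed grass (ZG) and a high concentrate diet while finishing (H2), each measured over 70 days.

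Of 111 libraries from 83 steers, 104 libraries from 77 steers were used. The 7 left out were 6 with under 1000000 gene counts and 1 CH-ZG H-RFI library from steer 571. The groups used held 10 H-RFI and 8 L-RFI CH steers on H1, 8 and 9 on ZG and 7 and 7 on H2. For HF they held 11 and 9, 10 and 9, and 8 and 8 steers on the same diets. Mean age at the start was 283 days in CH and 306 days in HF, and mean weight at the start of H1, ZG and H2 was 395, 519 and 675 kg in CH and 294, 441 and 611 kg in HF. Breed therefore went with age and weight, and diet went with age, weight and time, and these cannot be told apart here. Of the 77 steers, 52 were used in 1 phase, 23 in 2 phases and 2 in all 3. Libraries used held 2201765 to 52552057 gene counts (median 15852125.5). Levels are given as CPM, a gene's counts per 1000000 gene counts of its library. A count of 3 is worth 1.36 CPM where sequencing was shallowest and 0.189 CPM in a library of median depth, and such limits cover counting error only.

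Fatty acid synthase, the product of FASN, builds palmitate from acetyl-CoA and malonyl-CoA. ELOVL6 is an elongase of the endoplasmic reticulum that lengthens palmitate toward stearate. THRSP (thyroid hormone responsive, Spot 14) encodes a small nuclear protein that follows lipogenic activity in liver, mammary gland and fat. In ruminants, fatty acids are made mainly in adipose tissue, and the fat cells between muscle fibres form the marbling of beef. A muscle biopsy holds both fibres and such fat cells, so fewer cells of a type and less RNA per cell cannot be told apart in these libraries. CSRP3 and MYL6B, muscle genes chosen after the values were seen because none of the 10 skeletal muscle markers listed had an identifier in the sources used, had medians of 152 and 177 CPM.

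FASN was detected in every library used, between 14.4 and 543 CPM with a median of 44.1 CPM. THRSP ranged from 0 to 144 CPM with a median of 4.25 CPM, and 5 of 104 libraries held fewer than 3 THRSP reads. ELOVL6 ranged from 0 to 60.9 CPM with a median of 1.55 CPM, and 7 libraries held fewer than 3 reads of it. The genes differ in length, so these levels do not rank them against each other. The spread between steers of a group was wide. The within-group SD of log2 CPM was 1.78 for THRSP, 1.40 for ELOVL6 and 1.04 for FASN, against a median of 0.61 over the 10291 genes kept in the model of all libraries. Only 16 of these genes had a larger within-group SD than THRSP, while 116 exceeded ELOVL6 and 934 exceeded FASN. Genes with few counts also vary by counting, which bears on THRSP and ELOVL6 more than on FASN.

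**Figure D1:**
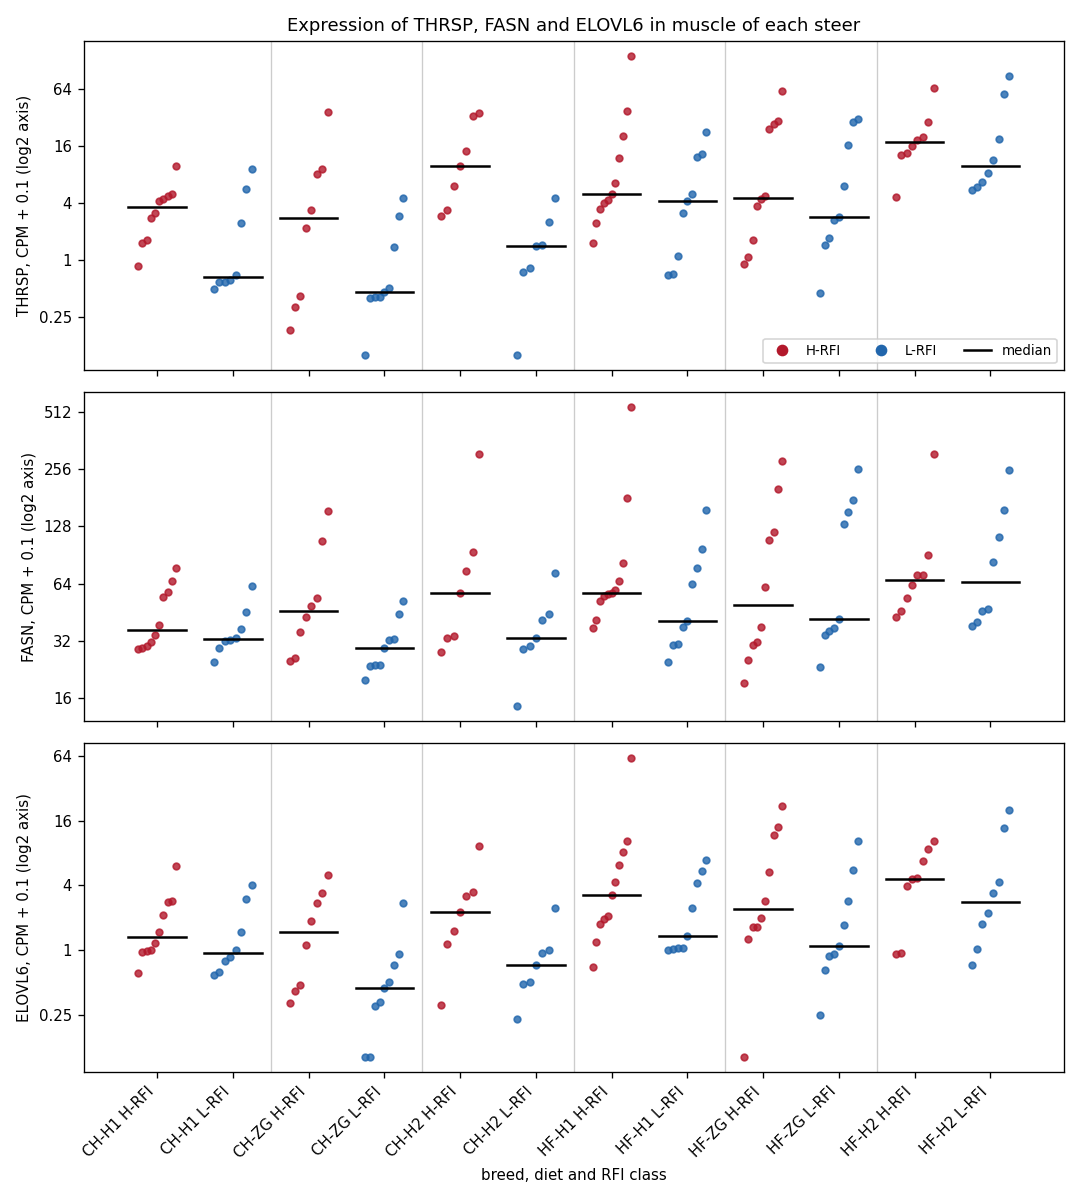
CPM of THRSP, FASN and ELOVL6 in each of the 104 libraries (points, 0.1 added, log2 axis), by breed, diet and RFI class, with the group median as a bar. For all 3 genes the highest median was in HF-H2 H-RFI and the lowest in CH-ZG L-RFI, and single HF-H1 and CH-H2 steers stood far above their groups.

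All 3 genes had their highest group median in HF-H2 H-RFI and their lowest in CH-ZG L-RFI. For THRSP these medians were 17.4 and 0.357 CPM, a ratio of 48.7. The lowest HF-H2 H-RFI steer had 4.52 CPM and the highest CH-ZG L-RFI steer 4.41 CPM, so the groups were barely apart. Both groups were picked by the values of the same gene, and they differ in breed, diet and RFI class at once. How many of all genes separate them was not counted. For ELOVL6 the medians were 4.51 and 0.342 CPM, a ratio of 13.2, and for FASN 66.8 and 29.4 CPM, a ratio of 2.27. The ranges overlapped for both of these genes.

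In descending order, the THRSP medians were 17.4 in HF-H2 H-RFI, 9.86 in HF-H2 L-RFI, 9.68 in CH-H2 H-RFI, 4.93 in HF-H1 H-RFI, 4.49 in HF-ZG H-RFI and 4.12 CPM in HF-H1 L-RFI. They went on with 3.58 in CH-H1 H-RFI, 2.76 in HF-ZG L-RFI, 2.70 in CH-ZG H-RFI, 1.32 in CH-H2 L-RFI, 0.561 in CH-H1 L-RFI and 0.357 CPM in CH-ZG L-RFI. The 3 lowest places were thus the 3 efficient CH groups. For each gene the ranges overlapped in all 11 pairs of neighbours in the order of the 12 groups, so no neighbour stood apart from the next beyond the spread of its steers.

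In ELOVL6 the L-RFI groups of CH also took low places, with medians of 0.833 CPM in CH-H1, 0.622 in CH-H2 and 0.342 in CH-ZG, against 1.22, 2.15 and 1.39 CPM in the matching H-RFI groups. In HF the ELOVL6 medians were 1.26 against 3.12 CPM in H1, 1.00 against 2.33 in ZG and 2.71 against 4.51 in H2, L-RFI given before H-RFI. FASN differed less between classes. Its medians in CH were 32.6 in L-RFI against 36.5 CPM in H-RFI in H1, 29.4 against 45.8 in ZG and 32.9 against 57.0 in H2, and in HF they were 40.6 against 56.8, 41.9 against 49.4 and 64.8 against 66.8 CPM. The L-RFI median lay below the H-RFI median in 6 of 6 comparisons for each of the 3 genes. The mean log2 CPM of FASN was lower in L-RFI in only 4 of 6, and not all fitted fold changes had this direction. How many of all genes do the same was not counted. The study had already reported each gene as lower in L-RFI in some of these comparisons, so the direction is not independent evidence.

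The first comparison asked whether efficient and inefficient steers of 1 breed on 1 diet differed in these genes. Since the study had reported such differences from these libraries, unadjusted p-values and ranks by p of these genes are not independent evidence. With edgeR's quasi-likelihood test, 0 of the 16 tests of the 3 genes passed the thresholds, which were a Benjamini-Hochberg adjusted p under 0.1 over all genes kept and a fold change above 1.5. That test called 0 genes in all 6 comparisons, a background of 0%, with 72 to 1227 genes at an unadjusted p under 0.05. edgeR's exact test and DESeq2 each called 0 to 2 genes a comparison, and besides CH-H2 these were 0.0189% of genes in CH-H1 by both and 0.00946% in HF-ZG by DESeq2. THRSP and ELOVL6 were under the filter of 1 CPM in at least 50% of the steers in CH-ZG, and their values there come from a fit with no filter on low counts.

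The largest difference was that of THRSP in CH-H2. The 7 H-RFI steers had 2.82, 3.27, 5.92, 9.68, 14.2, 32.9 and 35.5 CPM, and the 7 L-RFI steers had 0, 0.653, 0.718, 1.32, 1.36, 2.45 and 4.38 CPM. Of the L-RFI steers, 6 lay below every H-RFI steer, and 5 of the H-RFI steers lay above every L-RFI steer. After TMM scaling the classes no longer overlapped, the lowest H-RFI steer being at 1.80 and the highest L-RFI steer at 1.74 on the log2 CPM scale. This held for 0.02% of the genes in CH-H2 and for 1 of the 18 pairings of gene and comparison examined. The L-RFI steer at 0 was sequenced to a depth where 3 counts are 0.373 CPM, and the L-RFI value of 1.36 CPM rested on 3 counts.

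THRSP in CH-H2 had a log2 fold change of -3.40 (SE 0.74), L-RFI against H-RFI, with the smallest p of 10070 genes (p = 0.000258, adjusted p = 1.00, edgeR's quasi-likelihood test). edgeR's exact test called it as the only gene of that comparison (log2 fold change -3.39, adjusted p = 0.0529, background 0.00993%), and DESeq2's Wald test called it too (-3.38, adjusted p = 0.00895, background 0.0199%). The two-sided exact permutation test of mean log2 CPM gave p = 0.000583, the smallest that 7 against 7 steers can give, without adjustment. Leaving out 1 steer at a time moved the fold change between -3.71 and -2.67, with no call by the quasi-likelihood test.

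ELOVL6 and FASN pointed the same way in CH-H2 but with more overlap. ELOVL6 had 0.209, 1.03, 1.40, 2.15, 3.05, 3.36 and 9.12 CPM in H-RFI and 0.126, 0.385, 0.399, 0.622, 0.839, 0.908 and 2.36 CPM in L-RFI steers. Its log2 fold change was -1.85 (SE 0.58, adjusted p = 1.00, edgeR), 13th of 10070 genes by p, and the exact permutation test gave an unadjusted p of 0.0390. The highest L-RFI steer exceeded 4 of the 7 H-RFI steers.

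FASN had 27.9, 33.1, 34.0, 57.0, 74.3, 93.3 and 306 CPM in H-RFI and 14.4, 29.0, 30.0, 32.9, 41.3, 44.1 and 72.3 CPM in L-RFI steers of CH-H2. Its log2 fold change of -1.42 (SE 0.60, adjusted p = 1.00, edgeR) rested on the H-RFI steer 1840 at 306 CPM, without which it was -0.26. DESeq2's default fit, which can replace an outlying count in groups of this size, gave -0.26. Whether it replaced the count of steer 1840 was not tested. The same steer had the highest THRSP of its group, at 35.5 CPM, but an ELOVL6 of 1.40 CPM, below the group's median.

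**Figure D2:**
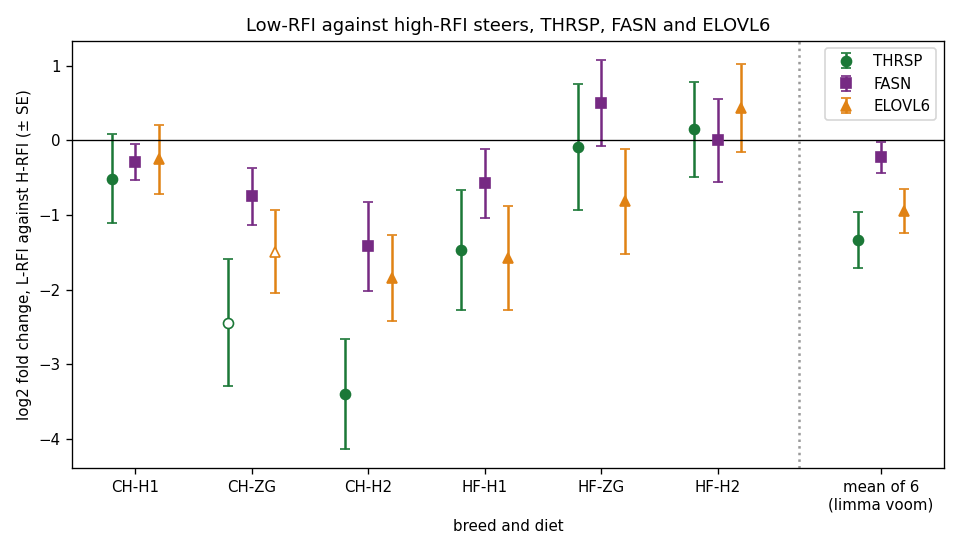
Log2 fold change of L-RFI against H-RFI steers with its SE, by edgeR within each breed and diet, and at the right the mean of the 6 by limma voom. Open symbols are fits with no filter on low counts. THRSP in CH-H2 lay lowest at -3.40, and the 3 genes lay near 0 in HF-H2.

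In CH-ZG, THRSP ranged from 0.0819 to 37.0 CPM in H-RFI and from 0 to 4.41 CPM in L-RFI steers, and 3 H-RFI and 6 L-RFI steers had under 1 CPM. The unfiltered log2 fold change was -2.45 (SE 0.85, adjusted p = 1.00, edgeR). ELOVL6 gave -1.49 (SE 0.55, adjusted p = 1.00), with an unadjusted exact permutation p of 0.0354, and FASN -0.75 (SE 0.38, adjusted p = 1.00). In CH-H1 the fold changes were -0.51 for THRSP (SE 0.60), -0.29 for FASN (SE 0.24) and -0.25 for ELOVL6 (SE 0.46), all with an adjusted p of 0.999 by edgeR. THRSP in CH-H1 showed a split among the efficient steers, of which 5 of 8 lay below 1 CPM while the others reached 9.14 CPM, and without L-RFI steer 1100, the highest, the fold change was -1.29.

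In HF-H1, THRSP ran from 1.42 to 144 CPM in H-RFI and from 0.593 to 22.2 CPM in L-RFI steers. The fold changes were -1.47 for THRSP (SE 0.80), -1.58 for ELOVL6 (SE 0.70) and -0.58 for FASN (SE 0.47), with an adjusted p of 1.00 each by edgeR. H-RFI steer 5613 had the highest level of all 3 genes among the 104 libraries, with 144 CPM of THRSP, 543 of FASN and 60.9 of ELOVL6. Without it the fold changes were -0.38, 0.04 and -0.41 for THRSP, FASN and ELOVL6.

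In HF-ZG the fold changes were -0.09 for THRSP (SE 0.84), 0.50 for FASN (SE 0.58) and -0.82 for ELOVL6 (SE 0.70). In HF-H2 they were 0.15 (SE 0.64), 0.00 (SE 0.55) and 0.43 (SE 0.59) in the same order. The adjusted p-values by edgeR lay between 0.472 and 1.00. THRSP in HF-H2 was between 4.52 and 64.8 CPM in H-RFI and between 5.41 and 88.5 CPM in L-RFI steers, so that the classes covered the same range. The difference of mean log2 CPM, L-RFI minus H-RFI, had the opposite sign to the fitted fold change in HF-H2 for THRSP (-0.22) and ELOVL6 (-0.18).

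Averaged over the 6 comparisons, the log2 fold change of L-RFI against H-RFI was -1.33 for THRSP (SE 0.37, p = 0.000557, adjusted p = 0.591), -0.95 for ELOVL6 (SE 0.30, p = 0.0017, adjusted p = 0.591) and -0.23 for FASN (SE 0.20, adjusted p = 0.615) by limma voom with the steer as a block. By p, THRSP was 9th and ELOVL6 17th of 10291 genes. The genes were chosen with earlier results of these data known, so these ranks are not independent evidence. None of the 3 genes passed, and 0% of all genes did, with 665 genes at an unadjusted p under 0.05. In the same libraries edgeR's quasi-likelihood test also called 0. An F test of whether the 6 RFI contrasts differed from each other gave adjusted p-values of 1.00 for all 3 genes (unadjusted p = 0.423, 0.419 and 0.690 for THRSP, FASN and ELOVL6). The larger fold changes in CH-H2 were therefore not shown to differ from those in the other comparisons.

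The second comparison set CH against HF on the same diet, each as the mean of both RFI classes. THRSP was lower in CH on grass and in the finishing phase. In ZG its median was 0.408 CPM in CH (0 to 37.0, n = 17) against 4.27 CPM in HF (0.351 to 61.5, n = 19), and the log2 fold change was -2.08 (SE 0.66, adjusted p = 0.0849, limma voom). In H2 it was 3.05 CPM in CH (0 to 35.5, n = 14) against 14.8 CPM in HF (4.52 to 88.5, n = 16), a log2 fold change of -2.51 (SE 0.65, adjusted p = 0.0892). The lowest HF-H2 steer thus lay above the CH-H2 median.

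The background was 1.46% of 10291 genes called in ZG, or 1.13% lower in CH, and 0.223% in H2, or 0.194% lower in CH. In H1, where 0.262% of genes were called, THRSP had 2.52 CPM in CH and 4.55 CPM in HF and was not called (log2 fold change -1.21, SE 0.62, adjusted p = 0.751). The calls were close to the threshold. Runs without 1 steer kept the weights, priors and other genes' p-values of the fit of all steers, so they are approximate. The ZG call was lost without any one of 15 of the 77 steers (adjusted p up to 0.164) and the H2 call without any one of 9 (up to 0.191), while the fold changes stayed between -2.32 and -1.72 and between -2.70 and -2.20. Without the 5 libraries holding over 1000 CPM of liver markers, the ZG value was -2.02 (adjusted p = 0.187) and the H2 value -2.57 (adjusted p = 0.0790). That run called 33 of 10230 genes in ZG and 29 in H2. The H2 call was also lost without the steer as a block (-2.45, adjusted p = 0.105). The block used 1 correlation for all genes, 0.097, whereas that of THRSP alone was -0.13. Liver markers and the 2 blood markers PTPRC and LYZ were below 0 in CH against HF as well, though none was called. The median log2 fold change of 6 liver markers was -0.91 in H1, -1.004 in ZG and -0.59 in H2, with all 6 below 0 in each, and that of 2 blood markers was -1.004, -1.41 and -0.85, with both below 0 in each. Their part in the difference of THRSP was not tested.

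No breed difference of ELOVL6 or FASN was called by limma voom, although all 6 fold changes were below 0. ELOVL6 had log2 fold changes of -0.93 (SE 0.47, adjusted p = 0.746) in H1, -1.43 (SE 0.51, adjusted p = 0.137) in ZG and -1.79 (SE 0.54, adjusted p = 0.191) in H2. Its medians were 0.987 against 2.19 CPM, 0.408 against 1.61 CPM and 0.968 against 4.02 CPM, CH before HF. edgeR's quasi-likelihood test on the same libraries called ELOVL6 in ZG (adjusted p = 0.0310, background 2.92%) and in H2 (adjusted p = 0.0963, background 0.418%). FASN had log2 fold changes of -0.61 (SE 0.33) in H1, -0.53 (SE 0.34) in ZG and -0.87 (SE 0.38) in H2, with adjusted p-values from 0.456 to 0.796.

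**Figure D3:**
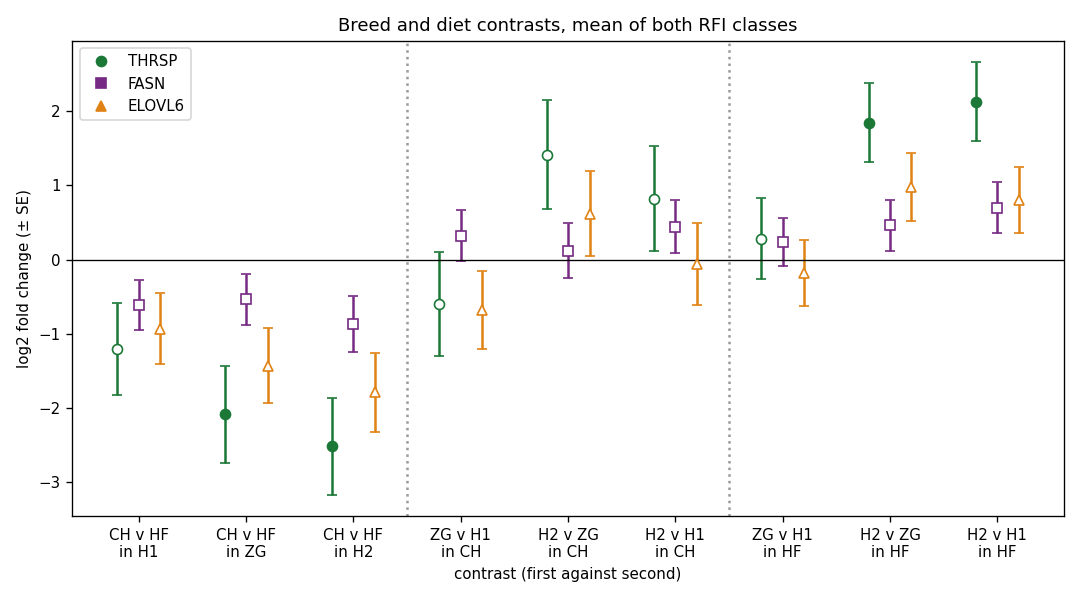
Log2 fold change with its SE for the 3 breed contrasts and the 6 diet contrasts, each the mean of both RFI classes, by limma voom. Filled symbols passed the thresholds, which were THRSP in CH against HF in ZG and in H2, and THRSP in H2 against ZG and in H2 against H1 in HF.

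The third comparison set the phases against each other within a breed. In HF, THRSP was higher in H2 than in either earlier phase. Its median rose from 4.55 CPM in H1 (0.593 to 144, n = 20) and 4.27 CPM in ZG to 14.8 CPM in H2. The log2 fold change was 2.13 against H1 (SE 0.53, adjusted p = 0.00303) and 1.84 against ZG (SE 0.53, adjusted p = 0.0206) by limma voom. Both contrasts share the H2 libraries. They called many genes, 14.8% against H1 and 6.08% against ZG, but most of those were lower in H2. Genes called higher in H2, as THRSP was, made up 2.55% and 0.972%. Both calls held without any one of the 77 steers in the same approximate runs. In edgeR's quasi-likelihood fit of these libraries, which had no block, the difference against ZG was 1.12 and was not called (adjusted p = 0.242, background 4.11%), while the difference against H1 was 1.44 and was called (adjusted p = 0.0704, background 9.6%).

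In HF, neither ELOVL6 nor FASN was called in H2. ELOVL6 had log2 fold changes of 0.80 against H1 (SE 0.44, adjusted p = 0.174) and 0.98 against ZG (SE 0.45, adjusted p = 0.168), and FASN 0.70 (SE 0.34, adjusted p = 0.122) and 0.46 (SE 0.35, adjusted p = 0.417). Without steer 5613 the H2 against H1 contrast was called for FASN (0.84, adjusted p = 0.0531) and for ELOVL6 (1.01, adjusted p = 0.0683). From H1 to ZG, where 0.564% of genes were called, the log2 fold changes were 0.28 for THRSP, 0.24 for FASN and -0.18 for ELOVL6.

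In CH no diet contrast was called for any of the 3 genes, where 2.54%, 1% and 2.44% of all genes were called in ZG against H1, H2 against ZG and H2 against H1. THRSP had log2 fold changes of -0.59 (SE 0.70), 1.41 (SE 0.74) and 0.82 (SE 0.71) in these contrasts, ELOVL6 -0.68, 0.62 and -0.06, and FASN 0.32, 0.12 and 0.44. edgeR's quasi-likelihood test without the block called none of them either (backgrounds 2.61%, 0.845% and 1.47%). The F test of breed by diet interaction gave adjusted p-values of 0.967 for THRSP, 0.973 for FASN and 0.967 for ELOVL6 (background 0%, with 470 genes at an unadjusted p under 0.05 and 0 called by edgeR), so the rise of THRSP in HF was not shown to differ from the change in CH.

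The last comparison asked whether the same steers were high in all 3 genes. It was made within each breed and diet, where each steer occurs once, by Pearson's r and Spearman's rho of log2 CPM with 100000 permutations and adjustment over the 18 relations. THRSP went with both other genes in every breed and diet. THRSP and ELOVL6 had r from 0.63 to 0.89 (rho from 0.65 to 0.89) and THRSP and FASN r from 0.54 to 0.86 (rho from 0.55 to 0.77), and all 12 relations had an adjusted p under 0.05 for both measures. FASN and ELOVL6 were less closely related, with r from 0.13 to 0.74 (rho from 0.00 to 0.57) and 3 of 6 relations passing. How many pairs of other genes would pass was not counted.

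For THRSP and ELOVL6, r was 0.87 for CH steers on H1 (adjusted permutation p = 7.2e-05, n = 18), 0.79 on ZG (adjusted permutation p = 0.00075, n = 17) and 0.63 on H2 (adjusted permutation p = 0.0221, n = 14). For HF steers it was 0.89 on H1 (n = 20), 0.84 on ZG (n = 19) and 0.68 on H2 (n = 16), with adjusted permutation p-values of 7.2e-05, 7.2e-05 and 0.00605. Without the 2 steers farthest from the median of THRSP, r was 0.82, 0.73 and 0.72 in CH and 0.81, 0.81 and 0.56 in HF, in the same order of diets, and the relation in HF-H2 no longer passed by r (adjusted permutation p = 0.0634). By rho the relations in HF-H2 and CH-ZG did not pass (adjusted permutation p = 0.0703 each). With the values centred on the mean of each RFI class the relation in CH-H2 fell to r = 0.39 (adjusted permutation p = 0.205), while the other 5 passed. In CH-ZG, L-RFI steer 1834 had a count of 0 and H-RFI steer 1843 a count of 1 for both THRSP and ELOVL6. Each of these steers thus had equal log2 values of both genes near the floor. The 2 farthest steers left out in CH-ZG were 437 and 1484, so r without such points was not tested.

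For THRSP and FASN, r was 0.60, 0.54 and 0.80 for CH steers on H1, ZG and H2, and 0.86, 0.83 and 0.75 for HF steers on these diets. Without the 2 steers farthest from the median of THRSP it was 0.57, 0.10, 0.52, 0.73, 0.77 and 0.53, and the relations in CH-ZG, CH-H2 and HF-H2 no longer passed. In CH-ZG it rested on H-RFI steers 437, with 37.0 CPM of THRSP, and 1484, with 8.97 CPM. For FASN and ELOVL6, r was 0.53 in CH-H1, 0.74 in HF-H1 and 0.55 in HF-ZG, which passed, and 0.13, 0.28 and 0.20 in CH-ZG, CH-H2 and HF-H2, which did not. Without the 2 steers farthest on FASN, the relation in HF-ZG passed by r (0.55, adjusted permutation p = 0.0461) but not by rho (adjusted permutation p = 0.0696), and the other 5 passed by neither.

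**Figure D4:**
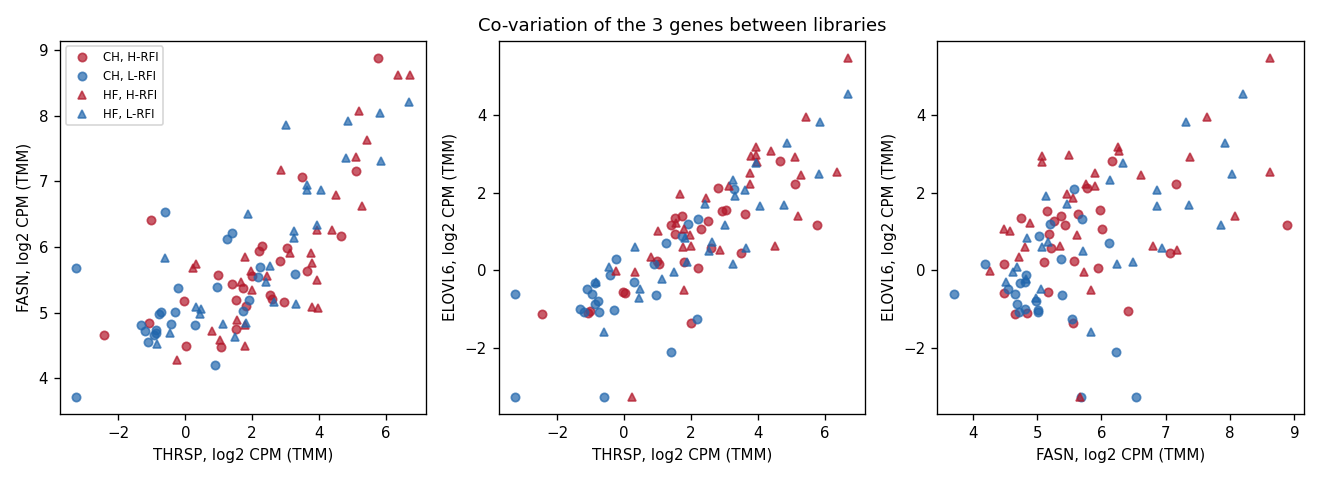
Log2 CPM (TMM, prior count 2) of the 3 genes against each other, 1 point per library, circles for CH and triangles for HF, red for H-RFI and blue for L-RFI. The points follow a band for THRSP with either other gene and scatter more widely for FASN with ELOVL6.

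Other genes were ranked by how closely their log2 CPM, centred on the mean of each of the 12 groups, followed each of the 3 over the 104 libraries. These correlations are descriptions over libraries that in part share steers. The 5 genes most like THRSP were FABP4, a fatty acid carrier of fat cells (r = 0.91), CIDEC, a lipid droplet protein (0.85), TRARG1, a regulator of GLUT4 traffic in fat cells (0.85), ENSBTAG00000047957 (0.84) and ENSBTAG00000015350 (0.82), the last 2 without a name in the sources used. ELOVL6 ranked 9th and FASN 12th among the 10290 other genes, with r of 0.77 and 0.73. The median r over all genes was 0.00 for THRSP and the 99th percentile was 0.29.

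The genes most like FASN were ENSBTAG00000003758 (r = 0.89), ENSBTAG00000001154 (0.89), ENSBTAG00000019512 (0.89), CIDEC (0.88) and ENSBTAG00000013303 (0.88). THRSP was 20th in this order. ELOVL6 was 2239th with r = 0.41, where the median r over all genes was -0.04 and the 99th percentile 0.59. The genes most like ELOVL6 were ENSBTAG00000019813 (r = 0.81), ENSBTAG00000045728 (0.80), THRSP (0.77), ENSBTAG00000047957 (0.76) and ENSBTAG00000008541 (0.73), and FASN was 224th. THRSP was thus among the nearest genes to both enzymes, which were farther from each other.

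Of the 22 fatty acid synthesis genes listed, 3 could be matched to an identifier in the files, and these are the 3 genes described. Of 13 adipocyte markers, 4 were matched (CIDEC, FABP4, TRARG1 and ANGPTL8). Names were at hand only for genes that the study had picked from these libraries, so their direction is not independent evidence. The summed level of the 4 markers ranged from 0.573 to 228 CPM over the libraries and moved with the 3 genes. Its centred log2 values had an r of 0.91 with THRSP, 0.76 with FASN and 0.74 with ELOVL6. Library depth had an r of -0.02, -0.17 and 0.09 with them, in the same order. FABP4 was at 0 in 1 library, ANGPTL8 in 2, and CIDEC and TRARG1 in none.

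The adipocyte sum differed between the groups too. In each comparison its L-RFI median lay below its H-RFI median, with 3.38 against 9.43 CPM on H1, 3.12 against 10.7 on ZG and 5.51 against 19.9 on H2 in CH, and 7.68 against 11.1, 7.68 against 29.7 and 34.1 against 35.8 CPM in HF. The fold changes fitted by edgeR, none of them called, did not all have this direction. In HF-H2 all 4 markers were above 0 in L-RFI against H-RFI (median log2 fold change 0.26), and in HF-ZG 2 of the 3 tested were (TRARG1 0.12 and CIDEC 0.37), while those tested in the other 4 comparisons were all below 0. In CH-H2, where THRSP differed most, the sum ranged from 6.20 to 88.8 CPM in H-RFI and from 1.62 to 15.2 CPM in L-RFI steers.

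In the breed and diet contrasts, 3 of the 4 adipocyte markers were tested by limma voom. All 3 were called higher in H2 than in H1 in HF, where 2.55% of all genes were, with log2 fold changes of 2.48 for CIDEC (adjusted p = 0.000257), 2.36 for TRARG1 (adjusted p = 0.000149) and 2.14 for FABP4 (adjusted p = 0.00116), and all 3 in H2 against ZG in HF, where 0.972% of all genes were. Of the breed contrasts, only FABP4 in ZG was called, lower in CH (-1.93, adjusted p = 0.0628), as were 1.13% of all genes. In the mean of the 6 RFI contrasts none was called, with log2 fold changes from -0.86 to -0.73. The part of these markers in the differences of THRSP, FASN and ELOVL6 was not tested.

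The sums of other marker lists had lower r with the 3 genes. The 6 liver markers matched (ALB, FGB, FGG, AHSG, HPX and ORM1) summed to 20.3 to 14623 CPM, over 1000 CPM in 5 HF libraries, and the sum had an r of 0.14 with THRSP, 0.04 with FASN and 0.27 with ELOVL6. None of the 6 was at 0 in any library used. The 2 blood markers matched, PTPRC and LYZ, summed to 0.156 to 85.0 CPM, with an r of 0.07, -0.24 and 0.38 in the same order, and LYZ was at 0 in 3 libraries. The other blood markers listed, HBB, HBA and ALAS2, had no match, so this sum does not stand for blood as a whole. The only fatty acid oxidation gene matched, PDK4, a kinase that restrains the use of glucose, had an r of -0.23 with THRSP, -0.43 with FASN and 0.05 with ELOVL6.

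The 25 steers used in more than 1 phase show how far the level of a gene stayed with the steer, a comparison chosen after seeing the data. With each value taken relative to its group mean, the first and the last phase had an r of -0.10 for THRSP (adjusted permutation p = 0.834, n = 25), -0.14 for FASN (0.834) and -0.04 for ELOVL6 (0.834). The Spearman rho was -0.01, -0.09 and 0.05 (adjusted permutation p = 0.975 each). Without the 2 steers farthest from the median of the first phase, r was 0.03, 0.11 and 0.08. Within breeds r lay between -0.16 and 0.02 over the 3 genes with all steers (12 CH and 13 HF). Without the 2 farthest steers of a breed it was -0.36, -0.07 and -0.28 for THRSP, FASN and ELOVL6 in CH, and 0.19, 0.28 and 0.28 in HF. A relation between phases was thus not detected over 25 steers.

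Single steers show the size of the shifts. HF steer 5613, H-RFI in both phases, had 144 CPM of THRSP, 543 of FASN and 60.9 of ELOVL6 in H1 and 0.974, 25.2 and 1.17 CPM in ZG. HF steer 2069, also H-RFI in both, moved the other way, from 11.9, 82.2 and 6.10 CPM in H1 to 61.5, 283 and 21.8 CPM in ZG. HF steer 2065 went from H-RFI in H1 to L-RFI in ZG with THRSP rising from 3.34 to 31.0 CPM. In these 3 steers all 3 genes shifted together. They were chosen after their values were seen, and the H1 library of steer 2069 was among the 5 with over 1000 CPM of liver markers. Not every steer did so. In HF steer 2064, THRSP went from 20.2 CPM in H1 to 28.3 in ZG and FASN from 59.4 to 131. ELOVL6 of that steer fell from 10.1 to 2.74 CPM.

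**Figure D5:**
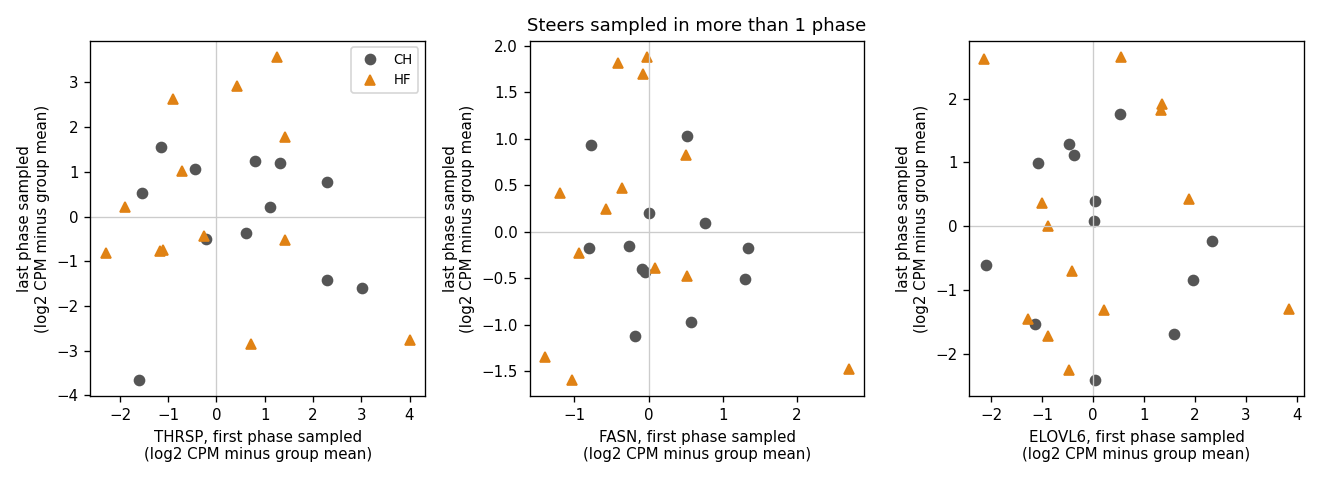
Log2 CPM relative to the group mean in the first (x axis) and last (y axis) phase for the 25 steers used in more than 1 phase, circles for CH and triangles for HF. The points lie on both sides of 0 on both axes for each gene, and steer 5613 lies at the right, high in H1 and below its group mean in ZG.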

How the data were processed

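Muscle biopsies of steers of 2 breeds, 3 dietary phases and 2 RFI classes were measured by RNA sequencing and grouped by the deposited labels. The libraries were stranded mRNA, sequenced as single-end reads of 50 bases. The authors counted reads per Ensembl gene with STAR, and the deposited values are raw counts, neither normalized nor filtered. The study's methods name the assembly ARS-UCD1.2, whereas the submitters' processing notes name UMD3.1 and list STAR 2.5.1, FastQC 0.11.5, HTSeq and DESeq2. Reverse-strand counts were used, which held 99.5% to 99.9% of the unstranded counts of the 3 genes. Symbols were paired with identifiers for 159 genes, 151 of them in the files, through gene lists that the study drew from these libraries. No pair of libraries had identical counts (0 pairs).

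L-RFI and H-RFI steers were compared within each breed and diet with edgeR 4.0.16 (quasi-likelihood test, TMM factors, genes reaching 1 CPM in 50% or more of the samples). Breed, diet, interaction and common RFI effects were tested with limma 3.58.1 (voom, 12 groups, duplicateCorrelation with the steer as block, which gave a consensus of 0.097), and the block pairs libraries of the same steer as labelled. Adjusted p-values are Benjamini-Hochberg values over all genes kept, and calls need an adjusted p under 0.1 and a fold change above 1.5 (for F tests the adjusted p alone). Correlations used log2 CPM (TMM, prior count 2), 100000 permutations and adjustment over 18 relations. The tests were tested on simulated data. R 4.3.3, Python 3.11.15 and DESeq2 1.42.0 were used.

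The members and gene lists were chosen with earlier results of these data known. The genes named beside the 3 were, for each, the 5 with the highest centred r, and listed markers by count. Alternatives were edgeR's exact test, DESeq2, permutation tests, RLE factors, other filters, unstranded counts, all libraries, 1 model of all libraries, no block, edgeR in place of limma, an adjusted p under 0.05 and leaving out each steer. For breed, diet and common RFI effects, runs without 1 steer kept the TMM factors, weights, correlation and variance prior of all steers. Leaving out libraries over 1000 CPM of liver markers was chosen after seeing the data. Sequences and gene coordinates of the files' assembly were not used here. Within a breed and diet each steer occurs once, so p-values there measure spread between animals. Tests over all libraries used pool 104 libraries from 77 steers, so their p-values mix spread between animals with spread within them.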

Additional observations from a re-analysis of the deposited data

Results flagged for a closer look

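In CH-H2 H-RFI, FASN of steer 1840 was 306 CPM, and the next highest steer was at 93.3 CPM. After TMM scaling these steers were at 8.89 and 6.16 and the lowest at 5.10 on the log2 CPM scale. The gap on that scale was 0.720 of the group's range, above Dixon's 95% critical value of 0.568. On the log2 CPM scale before TMM scaling the gap was a smaller share of the range and was not tested. This group was the only one flagged of 33 tested over the 3 genes, and chance flags about 1 in 20 groups.

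The library of steer 571, a CH-ZG H-RFI steer left out of every comparison, held 13818659 gene counts and 72.3 CPM of THRSP, 66.1 of FASN and 220 of ELOVL6. Its ELOVL6 was above the highest library used (60.9 CPM). The same library held 149677 CPM of the 6 liver markers and 95.5 CPM of the 4 adipocyte markers, against at most 14623 and 228 CPM in the libraries used. The part of the liver markers in these levels was not tested.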

How the results depend on the processing

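Within breed and diet, THRSP in CH-H2 passed with edgeR's exact test (-3.39) and DESeq2 (-3.38), so that 1 test of the 3 genes was called by either, against 0. The exact permutation p, with no adjustment, was under 0.05 for THRSP in CH-H2 (-3.22), ELOVL6 in CH-ZG (-1.56) and ELOVL6 in CH-H2 (-1.47). The share of all genes that would do so was not tested. In CH-ZG, ELOVL6 was under 1 CPM in 8 of 9 L-RFI and 3 of 8 H-RFI steers. In CH-H2, 2 L-RFI steers and 1 H-RFI steer held fewer than 3 reads of it. Of the breed and diet tests, 4 of 27 passed, and 2 with no filter and 2 with all libraries. These settings tested 10291, 16980 and 10222 genes, in the same order. Of all genes, CH against HF called 150, 119 and 4 in ZG and 23, 12 and 1 in H2. In HF, H2 against H1 called 1528, 2199 and 846, and H2 against ZG 626, 823 and 227. The lower THRSP of CH in ZG did not pass with no filter (-1.99), with all libraries (-1.58) or without the libraries high in liver markers (-2.02). In H2 it did not pass without the replicate block (-2.45), with RLE factors (-2.50), with no filter (-2.50) or with all libraries (-2.40). edgeR without the replicate block did not call THRSP in H2 against ZG in HF (1.12) and called ELOVL6 in CH against HF in ZG (-1.70) and H2 (-1.95). Without the libraries high in liver markers FASN passed in H2 against H1 in HF (0.76). Within limma voom, the replicate block changed no other call.

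Leaving out 1 steer at a time gave -2.32 to -1.72 for THRSP in CH against HF in ZG, where steers 1831, 1100, 1483, 788, 1843, 1639, 5616, 5633, 1961, 2064, 1834, 427, 2065, 2069 and 1816 each ended the call. It gave -2.70 to -2.20 in H2, where steers 1492, 1844, 2071, 1484, 2095, 5609, 1100, 1657 and 1316 did. FASN in H2 against H1 in HF (0.54 to 0.84) passed without 2266, 5608, 1643, 5612, 718, 5588, 5617 or 5613. ELOVL6 passed in CH against HF in ZG (-1.63 to -1.22) without 2242, 5632 or 5613, in H2 against ZG in HF (0.78 to 1.19) without 2065 or 2069, and in H2 against H1 in HF (0.63 to 1.01) without 5613.

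Of the 18 correlations, 15 passed by r and 15 by rho, and the share of pairs of other genes that would pass was not counted. By r and by rho, 9 and 7 passed without the 2 steers farthest on the x axis, 13 and 12 with centring on the RFI class, 16 and 12 on the log2(CPM + 1) scale, 12 and 9 with all libraries, and 15 and 14 without the libraries high in liver markers. Leaving out the 2 farthest steers gave r = 0.10, 0.52 and 0.53 for THRSP and FASN in CH-ZG, CH-H2 and HF-H2, 0.56 for THRSP and ELOVL6 in HF-H2, and 0.55 and 0.40 for FASN and ELOVL6 in CH-H1 and HF-H1. Centring on the RFI class gave 0.48 for THRSP and FASN in CH-ZG and 0.39 for THRSP and ELOVL6 in CH-H2. With all libraries, THRSP and FASN reversed in CH-ZG (-0.29) and HF-H2 (-0.28), THRSP and ELOVL6 no longer passed in CH-H2 (0.32) and HF-H2 (0.13), and FASN and ELOVL6 passed in HF-H2 (0.68). The log2(CPM + 1) scale gave 0.60 for FASN and ELOVL6 in CH-ZG, which passed. FASN and ELOVL6, which had not passed there, changed sign without the 2 farthest steers in CH-ZG (-0.32) and HF-H2 (-0.19), and in CH-ZG with centring (-0.072) and all libraries (-0.42).

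Fold changes that were not called also changed sign. In HF-ZG, THRSP gave 0.020 by DESeq2 and -0.88 to 0.34 leaving out 1 steer. In HF-H2 the means of log2 CPM gave -0.22 for THRSP and -0.18 for ELOVL6, and leaving out 1 steer gave -0.49 to 0.70 for THRSP, -0.34 to 0.61 for FASN and -0.24 to 0.59 for ELOVL6. FASN in HF-H2 was -0.033 by DESeq2, -0.034 with RLE factors, -0.057 with no filter and -0.15 without the libraries high in liver markers. Leaving out 1 steer also gave -0.76 to 0.041 for FASN in HF-H1, -0.11 to 0.27 for FASN in H2 against ZG in CH, -0.23 to 0.24 for ELOVL6 in H2 against H1 in CH, and -0.47 to 0.15 for ELOVL6 in ZG against H1 in HF. edgeR without the replicate block gave 0.17 for THRSP in ZG against H1 in CH, and all libraries gave 0.038 and 0.19 for ELOVL6 in ZG and in H2 against H1 in CH. The cause of these changes was not tested. The other 576 values, which for runs without 1 steer are the lowest and highest, kept their direction and side of the threshold, or for counts stayed within 1.5 times. THRSP and ELOVL6 rested on few reads in many CH steers, which limits the precision of their fold changes there.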
